A study of Arabidopsis thaliana with 16 samples.

Results

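The arrays described here compare Arabidopsis seedlings in which the TOR kinase was to be silenced for 6 days with seedlings of the same lines left without inducer. They are the 6 amiR-tor arrays of 6 days among 16 arrays in all, chosen by their titles: lines 9, 17 and 20 on 20 µM estradiol, and the same 3 lines on plates with no estradiol. The amiR-tor plants carry, in the Col-0 background, an artificial microRNA against TOR behind an estradiol-inducible promoter. The inducer check is 1 pair of arrays from plants with the empty vector pER8, also in Col-0, on 20 µM estradiol and without it for 6 days. All plants were germinated on medium with hygromycin in continuous light and were 2 weeks old when they were moved, and RNA came from seedlings. Each line contributed 1 array per condition, so the 3 lines are the replicates. The p-values rest on the spread between lines within a group, pooled over the 6 day and 3 day amiR-tor arrays. The same 3 lines gave the arrays of both days, which the main fit treats as independent. The labels do not say whether the lines are independent transformants or whether seedlings were pooled. The labels contradict each other: a different gene stands in the title of the series, and every sample description speaks of the empty vector. The groups therefore rest on the sample titles. TOR itself has no probe set in the names used here, and how far it was silenced was not analysed here.

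TOR is a protein kinase that, in plants as in other eukaryotes, promotes growth when nutrients and energy suffice. When it is active, protein synthesis and cell growth are favoured and autophagy, the delivery of cell contents to the vacuole for breakdown, is held back. In Arabidopsis a loss of TOR activity is known to slow growth, to change carbon storage and to bring on yellowing of leaves.

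Expression values are log2 GCRMA levels of probe sets, so a difference of 1 is 2-fold, and a level under 4 was treated as dim. The seedlings had the transcripts of both organs: the leaf gene LHCB4.1, a light-harvesting protein, stood at 13.18 to 13.86 on the induced and 13.81 to 14.08 on the non-induced amiR-tor arrays. The root gene PYK10, a beta-glucosidase, stood at 13.08 to 13.57 on the induced and 13.59 to 13.63 on the non-induced ones. In seedlings fewer cells of a type and less RNA per cell cannot be told apart.

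Line 9 stood apart in 1 respect that bears on every result. On its induced array the control for 25S ribosomal RNA had a level of 5.98, against 11.38 to 11.87 on the other 5 amiR-tor arrays of 6 days. The 5′ minus 3′ difference of the GAPDH control was -2.83 on that array and -0.77 to -0.56 on the other 5. Both empty-vector arrays of 6 days were like those 5, with a 25S level of 11.41. In line 9, induction and the kind of array cannot be told apart, whereas in lines 17 and 20 both arrays of the pair were of the same kind. Line 9 also had the most differences: 1285 probe sets were at least 2-fold higher and 1451 at least 2-fold lower on its induced array, against 589 and 523 in line 17 and 178 and 75 in line 20. In the empty vector 62 were at least 2-fold higher and 135 at least 2-fold lower with estradiol. Across the 13701 probe sets kept, the pair differences of lines 17 and 20 correlated at r = 0.564, those of lines 9 and 17 at 0.351 and those of lines 9 and 20 at 0.206. These correlations are descriptions across probe sets, which are not independent.

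After 6 days of induction 63 of 13701 probe sets (0.46%) passed the threshold, an adjusted p under 0.05 in limma with the Benjamini-Hochberg correction. Of these 54 (0.394%) rose and 9 (0.0657%) fell, and 1937 had an unadjusted p under 0.05. All 63 moved the same way in every line, with no overlap between the induced and non-induced arrays. Over all probe sets 11% had every induced array above every non-induced one and 6.5% had the opposite. The median pair difference of the 54 rises was 2.16 in line 9, 2.16 in line 17 and 1.43 in line 20, and -0.035 in the empty vector. That of the 9 falls was -1.58, -1.51 and -1.13, and -0.34 in the empty vector. Line 20 had the smallest difference in 41 of the 54 rises. A locus could be given to 23 of the rises and 6 of the falls, and a gene symbol to 4 of the rises and 0 of the falls. The count of 63 became 9 without line 9, 7 of them among the 63, it became 1 without line 17, and it became 55 without line 20. Each fit without a line had 4 residual degrees of freedom, against 8 in the main fit. Without line 9 all 54 rises and all 9 falls kept their direction. The median of the rises was then 1.76, against 1.90 in the main fit. With the kind of array as a covariate 30 passed, among them DFR, UF3GT and AAE16 (limma adjusted p = 0.0196, 0.03 and 0.0336) but not ATG8H (0.0837). The 10 arrays of the high 25S kind leave out the induced array of line 9 and the 3 day amiR-tor arrays of the low kind. On these 10 alone, with 3 residual degrees of freedom, the count was 0 in limma, and 1086 probe sets were under 0.05 before adjustment.

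Of the 4 rises with a symbol, the 2 largest were genes of anthocyanin synthesis, DFR and UF3GT. Anthocyanins are red and purple flavonoid pigments that leaves make under stress and nutrient limitation. DFR (AT5G42800) encodes dihydroflavonol reductase, which turns dihydroflavonols into the precursors of anthocyanins. Its level was 9.18, 8.12 and 6.40 in induced lines 9, 17 and 20, against 3.05, 2.52 and 2.71 in the same lines without inducer. Every non-induced level was dim, every induced one was far above it, and line 20 had the lowest induced level. The rise was 5.14 ± 0.60 (SE; limma adjusted p = 0.0085), a fold of 35.3 measured from levels near background. In the empty vector DFR stood at 5.20 with estradiol and 4.72 without it, between the induced and the non-induced lines.

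UF3GT (AT5G54060) encodes a glycosyltransferase that decorates anthocyanins. It read 8.09, 7.43 and 6.01 in induced lines 9, 17 and 20, against 4.09, 3.03 and 3.63 without inducer. Again no arrays overlapped and line 20 had the lowest induced level. The rise was 3.59 ± 0.52 (SE; limma adjusted p = 0.0196), or 12.1-fold from a non-induced mean under 4, near background, and the levels in the empty vector were 4.28 with estradiol and 4.19 without it. Without line 9 the differences of DFR and UF3GT were 4.65 and 3.39, with limma adjusted p = 0.069 and 0.0873.

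The flavonoid list holds 28 loci, of which 4 were measured, so most of the pathway was not assessed. Of the 4, 2 rose (DFR and UF3GT), 0 fell and 2 did not pass, while 0.394% of all probe sets rose. Earlier results of these data were known when the list was chosen, so the count is a description. UGT78D2 (AT5G17050), a flavonoid glucosyltransferase, had 10.18, 9.59 and 9.25 in induced lines 9, 17 and 20, against 8.14, 8.44 and 8.65 without inducer. The groups did not overlap, but its difference of 1.26 ± 0.28 (SE) did not pass (limma adjusted p = 0.0867). UGT78D1 (AT1G30530), a rhamnosyltransferase of flavonols, differed by 2.16 in line 9 and by 0.18 and 0.13 in lines 17 and 20. The median difference of the 4 was 2.43, against 0.01 over all probe sets. Its median was 3.08, 2.78 and 1.49 in lines 9, 17 and 20, and 0.335 in the empty vector.

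**Figure D1:**
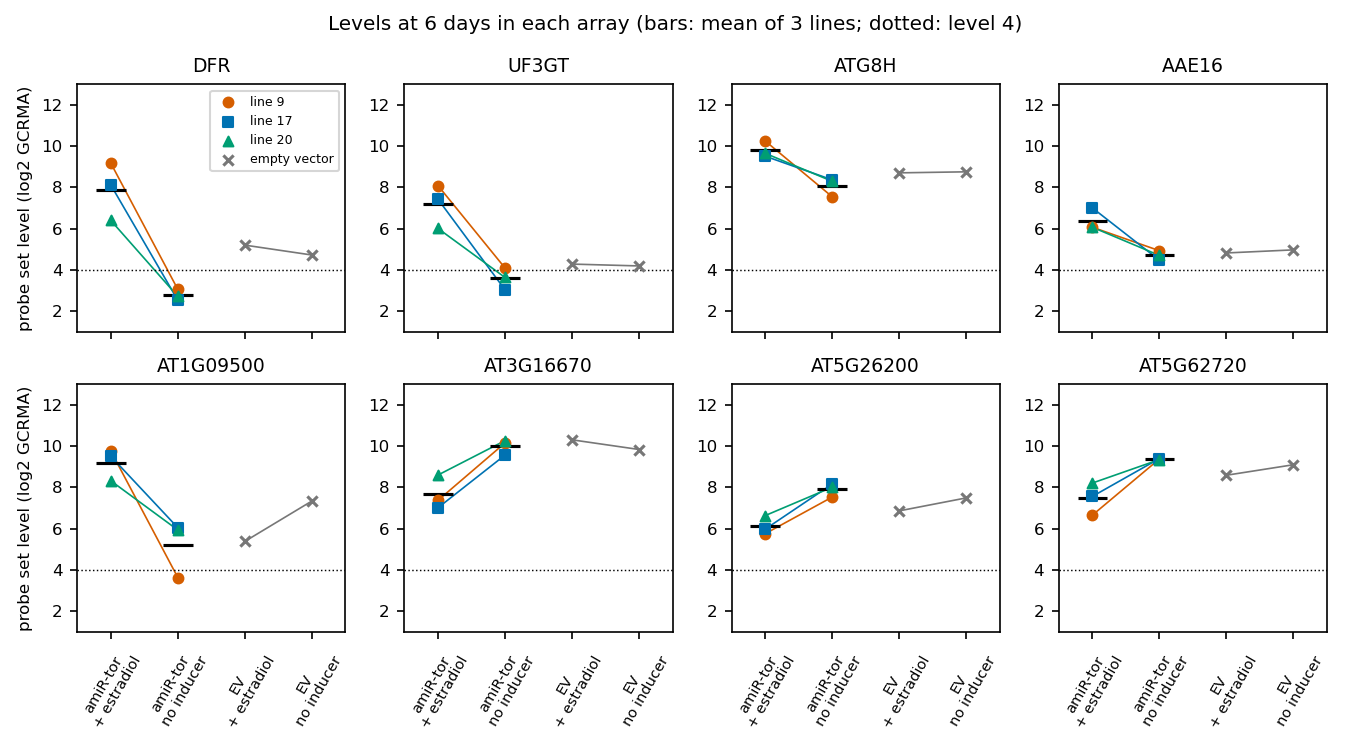
Level (log2 GCRMA) of 8 named genes on each array of 6 days, with amiR-tor lines 9, 17 and 20 and the empty vector (EV) on estradiol to the left of the same plants without inducer. Lines join the arrays of a pair and black bars are means of 3 lines. The induced points of DFR, 6.40 to 9.18, lie above all its non-induced points, 2.52 to 3.05, while AT1G09500 moved the other way in the empty vector, at 5.38 with estradiol and 7.34 without it.

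Autophagy was represented by 16 measured genes of 42 on the list. Of these 1 rose, 0 fell and 15 did not pass, while 15 of the 16 had a positive difference, 9 were higher in every line and 8 had a positive difference with an unadjusted p under 0.05. Over all probe sets 51.6% were positive, 22.2% were higher in every line, 8.92% were positive at that p and 0.394% passed as rises. This list too was chosen with earlier results of these data known, so the shares are a description. The gene that rose was ATG8H (AT3G06420), one of the small ubiquitin-like proteins that are attached to the autophagosome membrane. It read 10.26, 9.52 and 9.66 in induced lines 9, 17 and 20, against 7.55, 8.37 and 8.30 without inducer. All induced arrays were higher, and line 9 had both the highest and the lowest level. ATG8H rose by 1.74 ± 0.31 (SE; limma adjusted p = 0.0439), with 8.71 and 8.76 in the empty vector with and without estradiol. With the line as a block its limma adjusted p was 0.0755.

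All 9 members of the ATG8 family were measured, and all 9 had a positive difference, from 0.01 for ATG8E to 1.74 for ATG8H, with a median of 0.57. Of the 9, 4 were higher in every line, and without line 9 ATG8E and ATG8F were negative, at -0.28 and -0.02. APG8A (AT4G21980) had 11.78, 11.37 and 11.21 in induced lines 9, 17 and 20, against 10.48, 10.66 and 10.52 without inducer, and its arrays did not overlap. Its difference of 0.90 ± 0.21 (SE) did not pass (limma adjusted p = 0.0999). Among the other members ATG8G differed by 0.76, ATG8B by 0.71 and ATG8D by 0.57, whereas APG8H (0.28), ATG8C (0.25) and ATG8F (0.07) were close to 0. ATG3, the enzyme that joins ATG8 to its lipid, was the 1 negative gene of the list, at -1.18 in line 9 and 0.20 and 0.24 in lines 17 and 20. The list's median difference was 0.55, or 0.70, 0.495 and 0.23 in lines 9, 17 and 20 and -0.055 in the empty vector. Without line 9 the median was 0.30, with 14 of the 16 genes positive.

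Proteases of the vacuole and the secretory route were the other breakdown genes with positive differences, but 0 of 14 measured genes (of 23 on the list) passed the threshold. Of the 14, 11 were positive and 8 were higher in every line, against 51.6% and 22.2% of all probe sets. All 3 measured vacuolar processing enzymes, which mature other vacuolar proteins and take part in cell death, were higher in every line. GAMMA-VPE (AT4G32940), the most evenly changed of them, had 12.2, 11.89 and 11.47 in induced lines 9, 17 and 20, against 11.08, 10.83 and 10.42 without inducer. The 3 pair differences were 1.12, 1.06 and 1.05, and -0.15 in the empty vector. The difference of 1.08 ± 0.23 (SE) had limma adjusted p = 0.0841, and passed with the line as a block (limma adjusted p = 0.0281).

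BETA-VPE (AT1G62710), known from seeds, had 7.25, 6.99 and 6.50 in induced lines 9, 17 and 20, against 5.59, 5.38 and 5.90 without inducer. It differed by 1.29 ± 0.25 (SE; limma adjusted p = 0.0575), with no overlap of arrays. ALPHA-VPE (AT2G25940) differed by 1.37 and the subtilase SBT3.5 (AT1G32940) by 1.5, but in the empty vector they differed by -1.65 and -1.49. AT1G62290, on the same list, went the other way at -1.17, and was also negative in the empty vector at -0.95. The list's median was 0.46, with 0.23, 0.72 and 0.455 in lines 9, 17 and 20 and -0.145 in the empty vector.

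Every measured gene of chlorophyll synthesis was lower in every induced line, though none passed singly. The list has 22 loci and 7 were measured: 0 rose, 0 fell and 7 did not pass, with limma adjusted p from 0.104 to 0.349. All 7 were lower in every line, against 17% of all probe sets, and all 7 had an unadjusted p under 0.05, against 5.22% of all probe sets in that direction. The list was chosen with earlier results of these data known, so these shares are a description and not a test. Their median difference was -0.71, or -0.95, -0.94 and -0.35 in lines 9, 17 and 20 and -0.08 in the empty vector.

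The largest of the 7 was PORB (AT4G27440), which reduces protochlorophyllide in the light-dependent step. PORB read 8.75, 9.09 and 10.34 in induced lines 9, 17 and 20, against 11.16, 10.84 and 10.68 without inducer. The difference was -1.5 ± 0.36 (SE; limma adjusted p = 0.104), and line 20 contributed -0.34. In the empty vector PORB was 10.58 with estradiol and 10.82 without it. HEME1 (AT3G14930), a uroporphyrinogen decarboxylase, had 7.68, 7.68 and 9.06 in induced lines 9, 17 and 20, against 9.39, 9.34 and 9.42 without inducer. Here too line 20 had the smallest difference, -0.36, against -1.71 and -1.66.

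The other 5 cover the route from its first steps to the methylation of magnesium protoporphyrin. GSA1, which makes aminolevulinic acid, differed by -0.49, and HEMB1 (AT1G69740), which condenses it, by -0.71 ± 0.18 (SE; limma adjusted p = 0.128). HEME2, the second uroporphyrinogen decarboxylase, differed by -0.71, CHLI2, a subunit of magnesium chelatase, by -1.15, and CHLM, the methyltransferase, by -0.59. In line 20 the 7 genes ranged from -0.36 to -0.08. At 3 days their median was -1.11 in line 9, -0.30 in line 17 and -0.10 in line 20, with -0.15 in the empty vector. PORB differed by -1.08 in the empty vector at 3 days, against -1.96, -1.20 and -0.96 in lines 9, 17 and 20.

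Genes of the photosynthetic apparatus itself differed little. All 11 measured of 56 were negative, 7 were lower in every line, and 0 passed, with differences from -0.38 for LHCB4.1 to -0.06 for LHCB4.3. Over all probe sets 48.2% were negative and 17% were lower in every line. Their median was -0.01, -0.44 and -0.14 in lines 9, 17 and 20 and -0.10 in the empty vector, so line 17 was the lowest of the 3. RCA, which activates Rubisco, differed by -0.12, -0.11 and -0.05 in the 3 lines and by -0.10 in the empty vector.

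**Figure D2:**
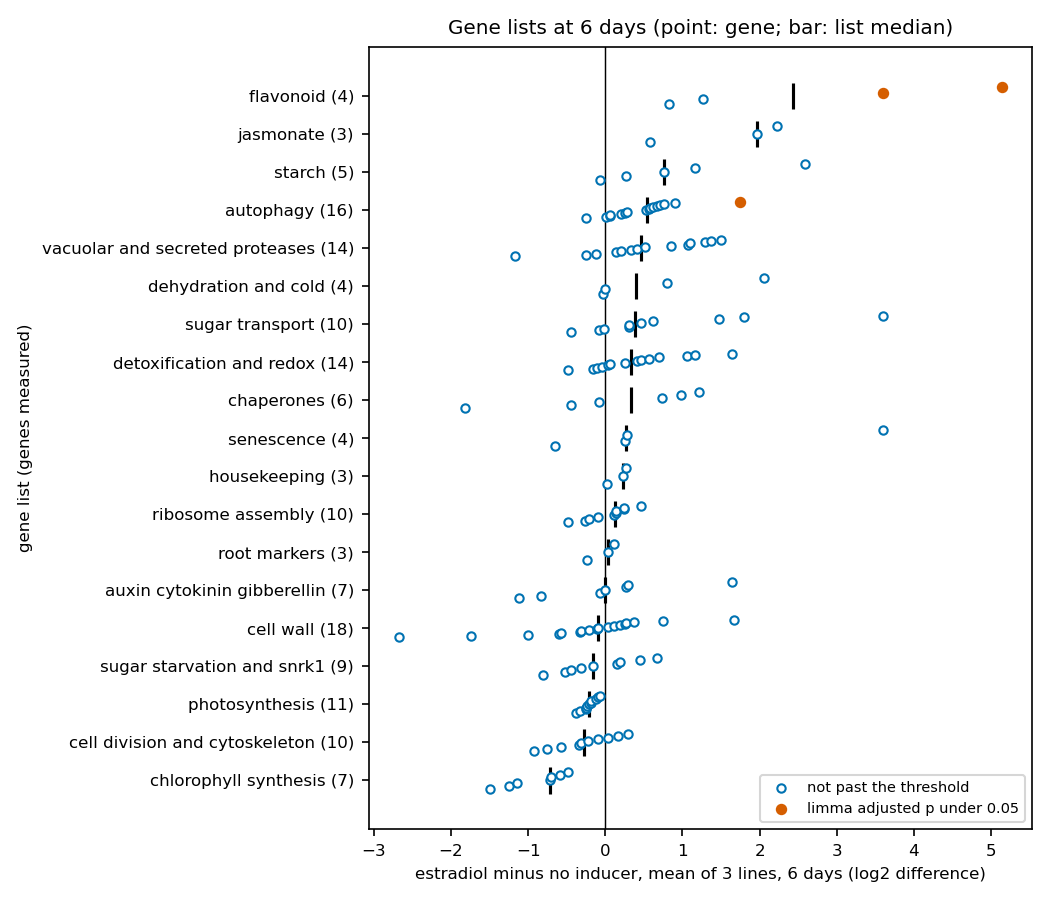
Difference between induced and non-induced amiR-tor arrays at 6 days (log2, mean of 3 lines) for each measured gene of the lists with at least 3 measured genes, with the number measured in brackets. Filled points passed the threshold in limma and black bars are list medians. The 7 chlorophyll synthesis genes lie between -1.5 and -0.49, and the filled points are DFR, UF3GT and ATG8H.

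Among sugar and starch genes none passed: 0 of 10 for sugar transport, 0 of 5 for starch and 0 of 9 for sugar starvation. SAG29 (AT5G13170), a SWEET-family sugar transporter known from senescing leaves, read 8.79, 9.89 and 7.06 in induced lines 9, 17 and 20, against 4.71, 4.76 and 5.47 without inducer. The arrays did not overlap, but the spread was wide and the difference of 3.60 ± 0.87 (SE) did not pass (limma adjusted p = 0.111). In the empty vector SAG29 was 5.83 with estradiol and 4.90 without it. Of 4 measured genes of the senescence list, SAG29 among them, 0 passed and 3 were positive. SAG101 differed by 0.28 and WRKY6 by 0.26, while WRKY53 was -1.46, -0.98 and 0.49 in lines 9, 17 and 20. APL3 (AT4G39210), which encodes part of the enzyme that makes ADP-glucose for starch, had 8.76, 9.18 and 7.08 in induced lines 9, 17 and 20, against 5.59, 5.54 and 6.13 without inducer. Its difference of 2.59 ± 0.53 (SE; limma adjusted p = 0.0692) was 3.17, 3.64 and 0.95 by line, and 0.59 in the empty vector.

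Of 10 measured sugar transport genes 7 were positive and 5 higher in every line, against 51.6% and 22.2% of all probe sets. SWEET10 and SWEET4, at 1.8 and 1.47, were close to 0 in line 20 (0.09 and -0.09). SWEET16, a vacuolar transporter, was negative in every line, from -0.53 to -0.37. Of 5 starch genes 4 were positive, among them PWD, a phosphoglucan water dikinase of starch breakdown, at 0.76 and higher in every line. Of 9 genes of the sugar starvation list 4 were positive and 5 negative, with ETFALPHA, an electron transfer flavoprotein of the mitochondrion, at 0.67 and AKINBETA1, a regulatory subunit of SnRK1, at -0.81. Neither passed (limma adjusted p = 0.11 and 0.29). In the empty vector ETFALPHA differed by 0.08 and AKINBETA1 by -0.45. The median of the sugar starvation list was -0.16 in the lines and -0.31 in the empty vector.

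Growth genes were mixed, and several were far lower in line 9 than in the other lines. Of 10 cell division and cytoskeleton genes 0 passed and 7 were negative. PRL (AT4G02060), which helps to license DNA for replication, had 4.09, 4.07 and 4.79 in induced lines 9, 17 and 20, against 5.32, 5.05 and 5.35 without inducer, a difference of -0.92 ± 0.22 (SE; limma adjusted p = 0.0984). TUB5 (AT1G20010), a beta-tubulin, was -0.94, -0.74 and -0.58 in the 3 lines and 0.28 in the empty vector. By contrast TUA6, an alpha-tubulin, was -1.56 in line 9 and -0.04 and -0.12 in lines 17 and 20.

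Of 18 cell wall genes 0 passed, 8 were positive and 10 negative, with a median of -0.10. Without line 9, 11 were positive and 7 negative, with a median of 0.16. The wall-loosening expansin EXPA8 had the largest difference of the list, -2.68, which was -5.47, -2.35 and -0.21 in lines 9, 17 and 20. EXPA4 was -2.27 in line 9 but -0.22 and -0.53 in lines 17 and 20. EXPB3 (AT4G28250) was lower in every line, at -3.43, -0.92 and -0.86, with -0.02 in the empty vector. XTH33 (AT1G10550), a xyloglucan-modifying enzyme, was higher in every line by 1.34, 1.96 and 1.70, with 0.21 in the empty vector. Its difference of 1.67 ± 0.47 (SE) did not pass (limma adjusted p = 0.161).

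Of 10 genes of ribosome assembly 0 passed, 6 were positive and 4 negative, from -0.49 to 0.46, and without line 9 the split was 9 and 1. Their median was 0.12, with or without line 9. In the empty vector they differed by 0.01 to 0.58, with a median of 0.27. Of the TOR complex and its targets 1 of 10 loci was measured: RAPTOR1 (AT3G08850), the partner that brings substrates to TOR, at 0.26 ± 0.20 (SE; limma adjusted p = 0.575). Of 3 root markers 0 passed, with values from -0.24 to 0.11, and of 3 housekeeping genes 0 passed, with values from 0.02 to 0.27. The seed and flower, salicylate defence and nitrogen assimilation lists had 0 measured genes.

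Besides the 3 genes above, the only other rise with a symbol was AAE16 (AT3G23790), which encodes an acyl-activating enzyme. It read 6.07, 7.01 and 6.07 in induced lines 9, 17 and 20, against 4.93, 4.47 and 4.70 without inducer. Here line 17 had the highest induced level. AAE16 rose by 1.68 ± 0.25 (SE; limma adjusted p = 0.0202), and differed by -0.15 in the empty vector.

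The other named rises are genes for which the gene table gives a locus and no symbol, so no role is stated. The largest was AT1G09500, at 9.77, 9.51 and 8.32 in induced lines 9, 17 and 20, against 3.62, 6.04 and 5.93 without inducer. It rose by 4.0 ± 0.65 (SE; limma adjusted p = 0.0269), with limma adjusted p = 0.0545 with the line as a block. AT1G76470 had 7.47, 6.81 and 4.77 in induced lines 9, 17 and 20, against 2.85, 2.36 and 2.51 without inducer, and rose by 3.78 ± 0.66 (SE; limma adjusted p = 0.042). All its non-induced levels were dim, as were 2.89 and 2.86 in the empty vector with and without estradiol.

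AT1G10585 rose by 2.68, AT2G15830 by 2.59, AT2G25625 by 2.37, AT1G54890 by 2.17, AT5G18840 by 2.14 and AT1G80130 by 2.13. Of these AT1G10585 and AT1G80130 were also higher with estradiol in the empty vector, by 0.92 and 0.90, and AT5G18840 by 0.70. With the line as a block AT5G18840 had limma adjusted p = 0.0565. AT4G18425 rose by 1.89, AT1G62760 by 1.84 and AT2G41380 by 1.55. AT1G62760 was even across lines, at 2.08, 1.84 and 1.61, and of the 21 named genes with a locus that passed it was the only one also past the threshold without line 9 (limma adjusted p = 0.0487).

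Fewer genes fell, and none of the 6 named falls has a symbol in the gene table. AT3G16670 had 7.37, 7.01 and 8.6 in induced lines 9, 17 and 20, against 10.16, 9.57 and 10.27 without inducer. It fell by 2.34 ± 0.36 on the log2 scale (SE; limma adjusted p = 0.0244), or 5.06-fold, and was 10.31 with estradiol and 9.84 without it in the empty vector. AT5G62720 had 6.65, 7.56 and 8.21 in induced lines 9, 17 and 20, against 9.38, 9.40 and 9.35 without inducer. Its non-induced levels were nearly equal and its induced ones spread over more than 1 log2 unit. It fell by 1.90 ± 0.35 (SE; limma adjusted p = 0.0497), with limma adjusted p = 0.0792 with the line as a block.

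AT5G26200 fell by 1.78, AT3G19850 by 1.63, AT1G31710 by 1.19 and AT4G27620 by 1.09. AT3G19850 was at 6.18, 6.31 and 6.34 in induced lines 9, 17 and 20, against 7.76, 8.22 and 7.73 without inducer, so its induced levels were the closest together of the 6. The induced levels of AT4G27620, 3.14 to 3.61, were dim, so its fall is measured to a level near background. A second probe set of AT1G31710 differed by -3.01, -1.34 and -1.56 in lines 9, 17 and 20 with limma adjusted p = 0.171, or 0.0487 without line 9.

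The other 8 passing rises with a locus had differences of 0.70 to 1.37. The remaining 34 of the 63 passing probe sets were not listed with a single gene, and 3 of them are given. The largest rise of all was 245628_at, at 9.28, 8.69 and 6.48 in induced lines 9, 17 and 20, against 2.15, 2.28 and 2.31 without inducer, with 2.37 and 2.33 in the empty vector with and without estradiol. On the non-induced and empty-vector arrays it was close to the floor of the scale, and it rose by 5.90 ± 0.72 (SE; limma adjusted p = 0.0106). 252984_at had 11.10, 11.23 and 10.83 in induced lines 9, 17 and 20, against 7.28, 7.63 and 7.63 without inducer. The pair differences of 3.82, 3.60 and 3.20 were close together, and it had the smallest p of all probe sets, a rise of 3.54 ± 0.20 (SE; limma adjusted p = 2.93e-05). Of the falls, 255331_at differed by -1.83, -1.51 and -0.95 in the 3 lines and by -0.34 in the empty vector, a fall of 1.43 with limma adjusted p = 0.0497, and 0.0792 with the line as a block.

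**Figure D3:**
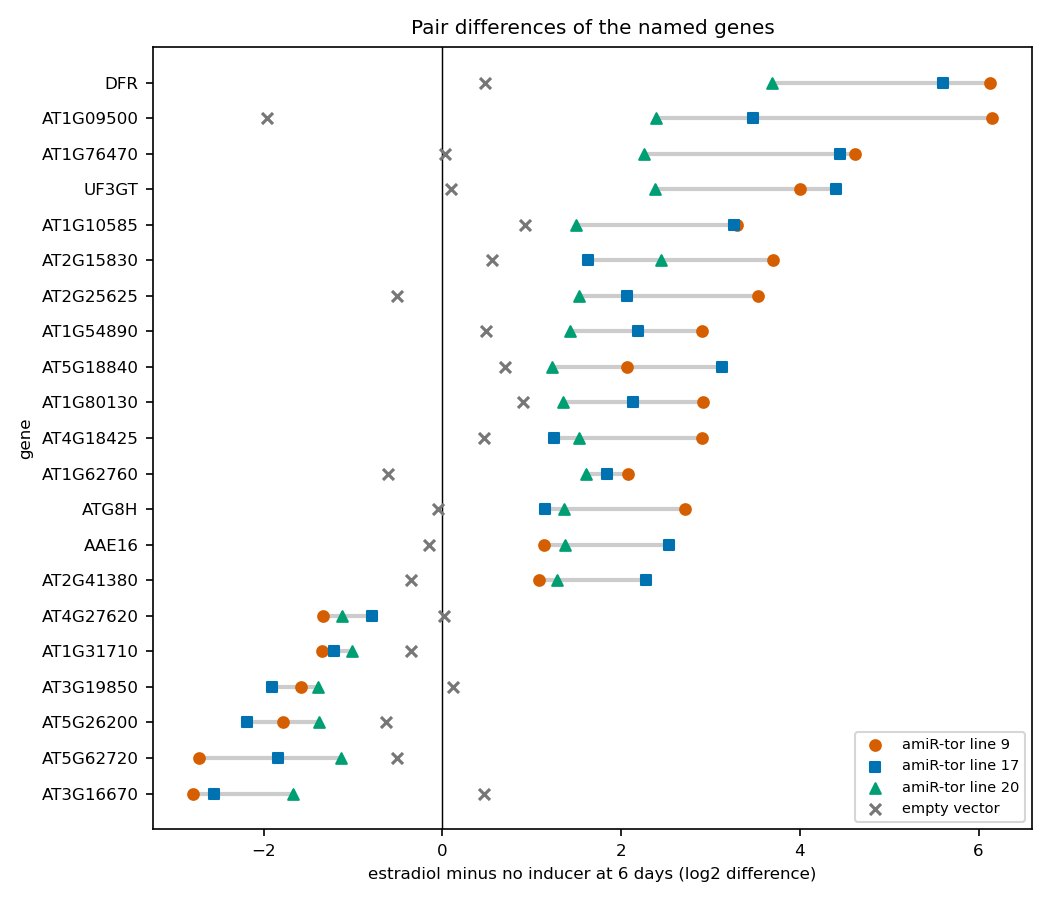
Estradiol minus no inducer at 6 days (log2 difference) for the 21 named genes with a locus that passed the threshold, 1 point for each amiR-tor line and a cross for the single empty-vector pair; grey bars span the 3 lines. All line points of the 15 rises lie above 1 and all those of the 6 falls below -0.7, while the empty vector runs from -1.96 for AT1G09500 to 0.92 for AT1G10585.

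By size alone, 89 probe sets (0.65%) were at least 2-fold higher in every line and 16 (0.117%) at least 2-fold lower, whatever their p. Of the 89, 40 also passed the threshold, and of the 16, 5 did. Without line 20 the counts were 323 and 151, so the smallest responses, those of line 20, set how many qualified. Of the 89, 12 had a symbol. Besides DFR, UF3GT, ATG8H and AAE16, which passed, and SAG29, XTH33, SBT3.5, ALPHA-VPE and GAMMA-VPE, given above, these were TBL26, GRX480 and BGLU46. They are named after their values were seen, as all remaining genes with a symbol.

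TBL26 (AT4G01080), of a family that acetylates wall polysaccharides, differed by 5.29, 2.65 and 1.3 in lines 9, 17 and 20 and by 0.90 in the empty vector. GRX480 (AT1G28480), a glutaredoxin that binds TGA transcription factors, differed by 2.61, 1.26 and 1.39, and by -1.31 in the empty vector. BGLU46 (AT1G61820), a beta-glucosidase of lignin precursors, differed by 1.45, 2.05 and 1.18, and by -0.55 in the empty vector. None of the 3 passed (limma adjusted p = 0.116 to 0.198), but with the line as a block BGLU46 did (limma adjusted p = 0.0281).

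Of the 16 at least 2-fold lower, 2 had a symbol, and neither passed. M17 (AT2G41260), a late embryogenesis abundant protein of seeds, had 2.2, 4.31 and 4.91 in induced lines 9, 17 and 20, against 7.53, 7.88 and 6.87 without inducer. The arrays did not overlap, and the empty vector was 7.15 with estradiol and 7.10 without it. Its difference of -3.62 ± 0.90 (SE) had limma adjusted p = 0.119. CCOAMT (AT1G67980), a methyltransferase of the phenylpropanoid pathway, differed by -1.18, -1.65 and -2.1 in lines 9, 17 and 20, and by -3.07 in the empty vector.

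In the single empty-vector pair the 54 rises had differences from -1.96 to 0.92, 24 of them above 0 and 28 below. None was at least 2-fold higher there, while 0.453% of all probe sets were, and 4 of the 54 were at least 2-fold lower. Of the 89 probe sets at least 2-fold higher in every line, 18 (20.2%) were at least 2-fold lower with estradiol in the empty vector, against 0.985% of all probe sets. The median level of the 18 was 8.58 in the induced lines and 5.95 in the non-induced lines, and 5.84 in the empty vector with estradiol and 7.63 without it. These levels follow in part from how the 18 were chosen and are a description. At 3 days the median difference of the 18 in the empty vector was 0.005. With 1 array per condition the empty vector has no replicates.

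**Figure D4:**
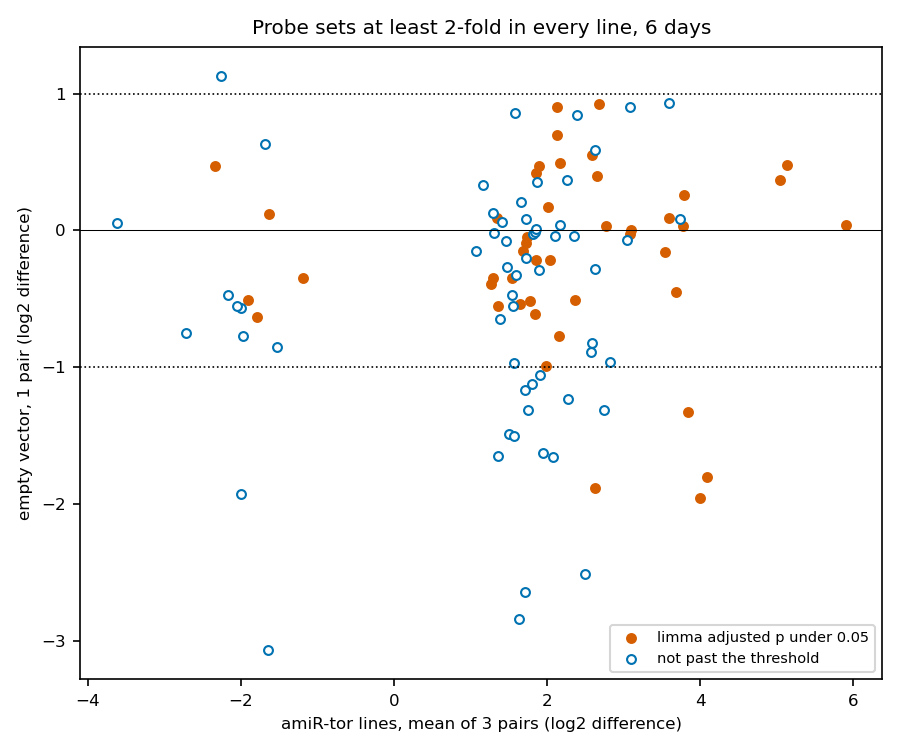
Mean difference of the 3 amiR-tor lines (horizontal, log2) against the difference of the empty-vector pair (vertical, log2) at 6 days for the 105 probe sets at least 2-fold changed the same way in every line; filled points passed the threshold in limma and dotted lines mark 2-fold in the empty vector. Of the 89 on the right, 18 lie at or below the lower dotted line and 0 above the upper one.

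When the empty-vector difference was subtracted from that of the lines, 1 probe set (0.0073%) was past the threshold and 392 had an unadjusted p under 0.05. This was 252984_at, at 3.70 (limma adjusted p = 0.0216). This test takes the lone empty-vector arrays to vary like the lines. DFR had a difference of 4.66 and AT1G09500 of 5.96 in that test, with limma adjusted p = 0.899 and 0.589. With the line as a block 4 probe sets passed. Estradiol in the empty vector had 0 calls in limma at 6 days, and 151 probe sets had an unadjusted p under 0.05.

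Most of the 6 day changes were already present in the same direction at 3 days, on other arrays of the same lines. Of the 54 rises 47 were higher in every line at 3 days, against 23.1% of all probe sets, and 7 of the 9 falls were lower in every line, against 15.5%. The median 3 day differences of the rises were 0.985, 0.86 and 0.545 in lines 9, 17 and 20, and 0.04 in the empty vector. At 3 days limma called 0 of the 13701 probe sets, and 1782 had an unadjusted p under 0.05. In 47 of the 54 rises and 6 of the 9 falls the 6 day difference was the larger in every line. The probe sets were chosen on their 6 day values, so this count is a description.

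UF3GT differed little at 3 days, by 0.50, 0.61 and 0.46 in lines 9, 17 and 20, and more at 6 days, by 4.0, 4.40 and 2.38. DFR differed by 1.14, 2.72 and 1.78 at 3 days and by 6.13, 5.60 and 3.69 at 6 days. BETA-VPE was not yet higher at 3 days in lines 9 and 20, at -0.15, 0.62 and -0.63 in lines 9, 17 and 20, against 1.66, 1.61 and 0.60 at 6 days. AT1G10585 differed by 2.88 in line 17 at 3 days and by 3.26 at 6 days, so there most of the difference was already present.

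The test of 6 days minus 3 days called 0 probe sets in limma. The smallest adjusted p was 0.256, and 234 probe sets were under 0.05 before adjustment. The differences between the days were 3.26 ± 0.85 for DFR, 3.07 ± 0.73 for UF3GT and 1.01 ± 0.35 for AAE16 (SE), none past the threshold. The 3 day arrays of lines 17 and 20 were of the low 25S kind and their 6 day arrays of the high kind. In these lines the day and the kind of array cannot be told apart. Both arrays of each pair were of the same 25S kind. At 3 days the GAPDH difference (5′ minus 3′) was -2.55 with estradiol and -1.69 without it in line 17, and -1.36 and -1.70 in line 20. The 3 day pair of line 9 was split like its 6 day pair, with a 25S level of 6.66 on the induced array and 11.99 on the non-induced one, so at 3 days too induction and the kind of array cannot be told apart in line 9. On the negative side, PIFI (AT3G15840), a chloroplast protein linked to electron transport around photosystem I, differed by 0.30, 0.08 and -0.21 in lines 9, 17 and 20 at 3 days and by -0.43, -0.72 and -0.28 at 6 days. It did not pass either.

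**Figure D5:**
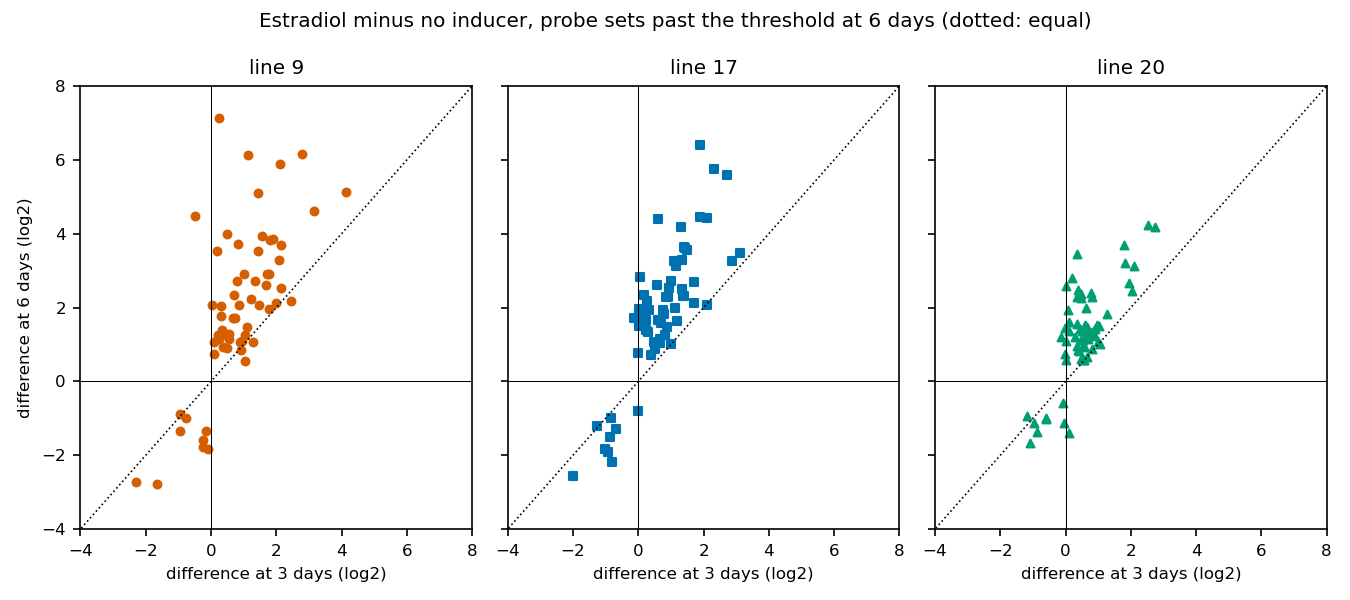
Estradiol minus no inducer at 3 days (horizontal) and at 6 days (vertical), both log2 differences, for the 63 probe sets past the threshold at 6 days, 1 panel for each amiR-tor line; the dotted line marks equal differences. Most points lie farther from 0 at 6 days, and the rises of line 20 reach 4.23 at most, against 7.13 in line 9 and 6.41 in line 17.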

How the data were processed

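Total RNA was labelled with biotin and hybridised to single-colour Affymetrix arrays, 1 per sample. The authors deposited log2 values computed with GCRMA, per the submitters' processing notes, whose version is not given in the sources used. No further normalization was applied. Of 22810 probe sets, 64 controls and 9045 that did not reach a log2 level of 4 in at least 3 arrays were left out, which left 13701. Array medians were 5.60 to 5.68. The number of arrays limits the precision. Names came from the platform annotation, updated through RefSeq (TAIR10.1): 7333 kept probe sets had a locus, 1066 a symbol, 298 several genes and 6047 no listed gene.

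A linear model with 1 mean per group was fitted to the 16 arrays (limma 3.58.1, R 4.3.3; eBayes, 8 residual degrees of freedom), and Benjamini-Hochberg adjustment ran over the 13701 probe sets at a threshold of 0.05. Its spread is pooled over the amiR-tor groups of both days, which hold the same 3 lines. Some of these groups hold both kinds of array, so the spread includes that difference too. On simulated data 25, 48, 50 and 50 of 50 changes of 1, 2, 4 and 5 (log2) were recovered, with 12 false calls. The simulated noise was independent between arrays, with no effect of line or kind of array. These counts therefore do not show how the fit performs on the real arrays. Named were the 15 largest rises and 10 largest falls among passing probe sets with 1 locus changed in 1 direction in all lines (all, where fewer), list members that passed or else the 2 with the smallest p, all calls or the 5 genes with a symbol each way of the largest statistic in the tests against the empty vector and 3 days, and up to 2 probe sets each way without a gene. Where a gene had several probe sets, the one with the highest mean stood for it. Not every list member named by this rule is given singly. Other genes are list members or are said to be chosen later. The 23 lists hold 615 loci, of which 156 were measured. Members and lists were chosen with earlier results of these data known, and no list was tested as a set. The same line gave both arrays of a pair, so the labels pair the arrays by line. The main fit does not use this pairing, and a fit that blocks on the line is an alternative. The deviations of both arrays of a pair from their group means correlated at 0.0359, 0.0571 and 0.234 for lines 9, 17 and 20. No arrays were copies (highest correlation 0.992, 4.48% identical values). Alternatives were other filters, quantile normalization, fewer arrays, the line as a block, the 25S class as a covariate, another moderation and leaving out each line. Promoter sequences were not used here, so a planned motif count was not made, and no sequence is printed.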

Additional observations from a re-analysis of the deposited data

Results flagged for a closer look

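At 6 days limma's test of the lines' difference against that of the empty vector called 252984_at, a probe set without a listed gene. Induction minus no inducer was 3.82, 3.60 and 3.20 in lines 9, 17 and 20 and -0.16 in the empty vector, a difference of 3.70 with limma adjusted p = 0.0216. At 3 days it was 1.81, 1.44 and 1.81 in the lines and 0.11 in the empty vector. The empty vector has 1 array per condition, and groups of 3 or fewer arrays were not searched for single arrays far from the rest.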

How the results depend on the processing

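The 63 calls at 6 days were 54 rises and 9 falls. They were 8 (7 and 1) without a filter, and why the count fell there was not tested. They were 2 (2 and 0) in a fit of the 6 arrays alone, and 30 (26 and 4) when the 25S class entered as a covariate. Leaving out 1 line gave 1 to 55 calls, with 1 to 45 rises and 0 to 10 falls. Fits chosen after the data were seen gave 0 calls (0 rises, 0 falls) on the 10 high-25S arrays and 0 (0 and 0) with the line as a replicate block on the 6 arrays alone. With the line as a replicate block on all arrays there were 65 calls. Under that block 19 of the 24 named probe sets that passed kept their call, 5 did not, and WES1, GAMMA-VPE and BGLU46 passed (limma adjusted p = 0.0307, 0.0281 and 0.0281), while no other call at 6 days changed among the named genes and list members. All 24 kept their direction in every alternative that tested them. Against the empty vector the 1 call became 143 without a filter, 4 with the replicate block, 0 with the 25S covariate, 0 on the high-25S arrays and 0 to 2 without 1 line. Estradiol in the empty vector had 158 calls without a filter. The 89 probe sets at least 2-fold higher in every line became 274 at 1.5-fold, 28 at 3-fold and 103 to 323 without 1 line, and the 16 lower ones became 107, 3 and 26 to 151. Without line 9 the sign changed in 17 of the 156 measured list members, 0 of them called. Of the genes named by rule, PEX4 changed sign without line 9 (-0.07; 0.405 without line 17) and EXPA18 without line 17 (-0.10; 0.27 without line 9). The cause was not tested for any of these beyond what each alternative leaves out. Levels under 4, near background, limit the size of 16 rises and 2 falls.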

Other observations

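Genes of detoxification and of stress were measured in the same pairs and are given as values, since none of them passed the threshold at 6 days. Of 14 detoxification and redox genes 10 were positive and 7 higher in every line, against 51.6% and 22.2% of all probe sets. Their median was 0.33, against 0.01 over all probe sets. AER (AT5G16970), which reduces reactive alkenals, had 10.35, 10.25 and 9.46 in induced lines 9, 17 and 20, against 8.79, 8.97 and 8.80 without inducer, and differed by 1.17 ± 0.26 (SE; limma adjusted p = 0.088). The glycosyltransferase UGT73B4 differed by 2.04, 2.35 and 0.52 and by -0.17 in the empty vector. The 8 aldehyde dehydrogenases among these genes lay between -0.49 and 0.41, with 4 positive and 4 negative.

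Of 6 chaperone genes 3 were positive in every line and 2 negative in every line. AT5G48570 had a difference of 0.98 ± 0.20 (SE; limma adjusted p = 0.0641), but the empty vector also differed, by 0.73. Fes1B was -2.31, -2.88 and -0.28 in lines 9, 17 and 20 and -0.77 in the empty vector. Of 4 dehydration and cold genes COR15A had the largest value, at 3.09, 2.39 and 0.69 in the 3 lines and -0.19 in the empty vector (limma adjusted p = 0.153).

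Hormone-linked genes differed between lines and arrays. WES1 (AT4G27260), an enzyme that conjugates auxin to amino acids, had 9.04, 9.31 and 8.58 in induced lines 9, 17 and 20, against 8.07, 7.46 and 6.46 without inducer. The groups did not overlap, line 20 had the largest difference, and the empty vector was lower with estradiol by 1.06. WES1 did not pass (limma adjusted p = 0.204), and had limma adjusted p = 0.0307 with the line as a block. At 3 days it differed by 0.41, -0.28 and 0.06 in the lines. The gibberellin receptor GID1A was -2.76 in line 9 and 0.06 and 0.19 in lines 17 and 20, while GID1C was lower in every line, at -2.27, -0.45 and -0.63, with -0.44 in the empty vector. Of 3 jasmonate-linked genes JRG21 differed by 2.64, 2.82 and 0.42 in lines 9, 17 and 20 and by -2.12 in the empty vector, and THI2.1 by 5.52, 0.44 and 0.73 and by -2.06. The median of the 3 was 1.96, or 0.585 without line 9.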
